A study of Capra hircus with 30 samples.

Results

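Receptors that open or signal when a neurotransmitter binds are textbook genes of neurons, and their subunits were described here as a reference for what the granulosa cell table holds for genes that are best known from another tissue. The genes were those whose NCBI goat gene number maps to a symbol of the ionotropic glutamate receptors (GRIA, GRIK, GRID and GRIN), the GABA-A receptors (GABR), the glycine receptors (GLR), the nicotinic acetylcholine receptors (CHRN) or the serotonin receptors (HTR). This gave 67 of the 20125 features in the table, of which 17946 carry an NCBI number. Genes were picked by their names, but the families were chosen with earlier results of these data known. By transmitter and channel type they were 4 AMPA, 5 kainate, 2 delta and 7 NMDA receptor genes, 18 GABA-A, 5 glycine, 12 nicotinic and 13 serotonin receptor genes. The remaining gene, GRID2IP, matched by its name but encodes delphilin, a scaffold protein of synapses, and is no receptor itself. Another 5 genes of these families, CHRNB4, CHRNE, CHRNG, GABRB2 and HTR3A, were not among the features of the table.

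Apart from the serotonin receptors other than HTR3 they are ion channels built from several subunits, and many of these channels need the products of more than 1 gene in the same cell. Glutamate and acetylcholine open channels that excite a neuron, whereas GABA and glycine open chloride channels that mostly quiet it. The serotonin receptors other than HTR3 signal through G proteins and act over slower times. Several of these genes also have known uses outside the brain, such as CHRNA1 in skeletal muscle and HTR2B in smooth muscle and heart.

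The data were RNA-seq values of granulosa cells, which line the ovarian follicle and nurse the oocyte, from Ji'ning grey goats, with 30 libraries in 6 groups of 5. Granulosa cells of goats with high fertility came from large (HLG), medium (HMG) and small (HSG) follicles, and those of goats with low fertility from the same sizes (LLG, LMG and LSG). Per the study's methods, high fertility meant at least 3 kids in a litter and low fertility at most 2, and follicles under 3 mm were small, those of 3 to 7 mm medium and those over 7 mm large. The goats of all groups were of 1 breed and no treatment is named. Follicles of each fertility class were collected from several goats and the granulosa cells of each size divided into libraries, which are named by group and by the labels' numbers 5, 7, 8, 9 and 10. Their ages and the animals behind a library are not given in the sources used here, so the spread between libraries may be technical.

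Values are FPKM, fragments scaled by transcript length and by the library's mapped total, written with 2 decimals. A value listed at 0 can be a gene without a fragment, a small value rounded down or a failed estimate. Read depth was not part of the table, and no floor per library could be computed. Libraries differed widely in how many features were above 0, from 301 in LLG-7 to 9256 in LMG-9. A set of 7 libraries (HLG-5, HLG-8, LLG-5, LLG-7, LLG-10, HMG-8 and HSG-5) had at most 1974 features above 0 and the other 23 had at least 2446. The label was checked against a list of 20 granulosa cell markers, 17 of them in the table. FSHR, the receptor of follicle-stimulating hormone, and AMH, anti-Müllerian hormone, were each above 0 in 1 of 30 libraries, and INHA, the inhibin alpha subunit, in 2. KITLG, the ligand of the KIT receptor, was above 0 in 19, the most of the 17. Over the 17 markers the median was 6 libraries, and 23.7% of their values were above 0. In at least 15 libraries 2 of the 17 were above 0, and in at most 5 libraries 8 were. Each library was made from at most 20 granulosa cells, per the study's methods. In pools of cells such as these, fewer cells of a type and less RNA per cell cannot be told apart. How far the small number of cells shaped the values at 0 was not tested.

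Neurotransmitter receptor genes were above 0 about as often as the genes of the table in general, and about as often as the granulosa cell markers. Of the 2010 values of the 67 genes, 520 were above 0, which was 25.9%, against 23.9% of the values of all features with an NCBI number and 23.7% of the values of granulosa cell markers. Values of at least 1 FPKM made up 8.76% for the receptor genes, 8.21% for all NCBI features and 8.43% for the granulosa markers. The median receptor gene was above 0 in 7 libraries, the median NCBI feature in 5 and the median granulosa marker in 6. Genes that most cells use, such as actin and ribosomal protein genes, stood higher, with 42.1% of values above 0 and a median of 13 libraries for the 28 in the table.

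The levels were alike too. Where a receptor gene was above 0, its median value was 0.56 FPKM, and the median over all NCBI features was 0.52 FPKM. No receptor gene was above 0 in all 30 libraries. None was at 0 in all of them, but the same held for all 20125 features. The table thus lists only features above 0 somewhere, and shares above 0 leave out the genes it does not hold. A share of 41.8% of the receptor genes (28 of 67) was above 0 in at most 5 libraries, against 51.3% of the NCBI features, and 11.9% (8 of 67) in at least 15 libraries, against 13.6% of the NCBI features. High values were rarer among them: 2.31% of their values above 0 reached 5 FPKM, compared with 5.97% for all NCBI features.

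**Figure D1:**
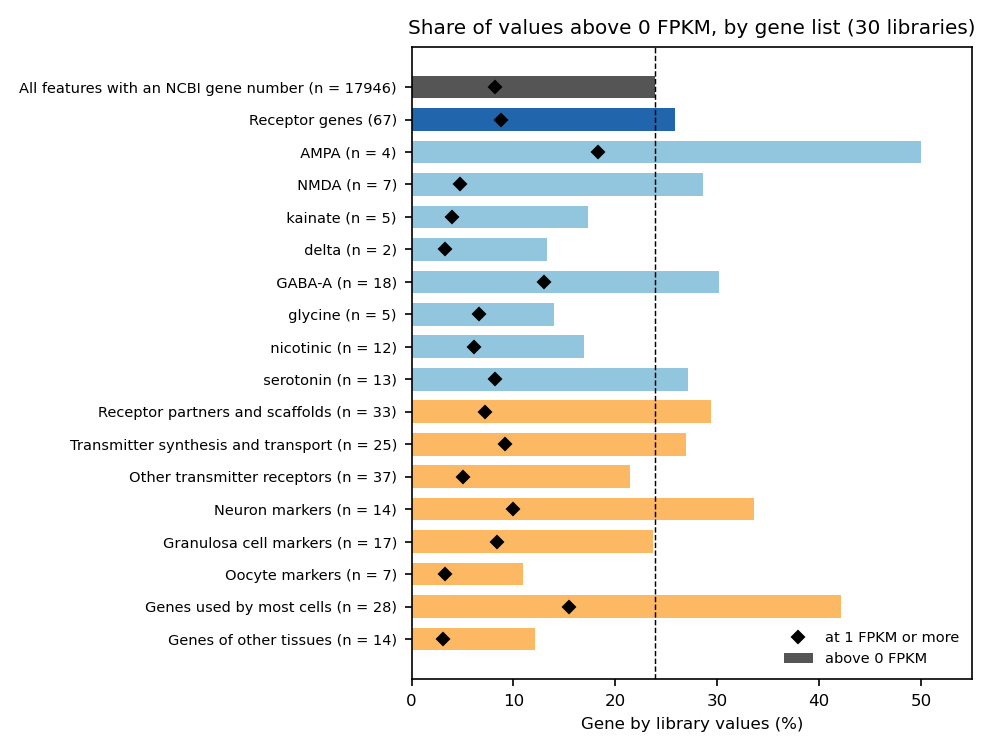
Bars give the percent of gene by library values above 0 FPKM for each gene list, and diamonds the percent at 1 FPKM or more, with the number of genes in the table in brackets and a dashed line at the share of all NCBI features. The bar of the 67 genes (25.9%) ends close to the line, AMPA receptor genes (50.0%) reach furthest to the right, and the genes of other tissues (12.1%) and oocyte markers (11.0%) are the shortest.

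The receptor classes differed among themselves. The AMPA receptor genes had 50.0% of their values above 0, the GABA-A genes 30.2%, the NMDA genes 28.6% and the serotonin receptor genes 27.2%. Below the share of all NCBI features stood the kainate genes with 17.3%, the nicotinic genes with 16.9%, the glycine genes with 14.0% and the delta genes with 13.3%. A list of 28 genes of other tissues, such as liver, pancreas and eye, had 14 in the table. For these 14, 12.1% of values were above 0, which was lower than for any of these 8 classes, of which the delta class held 2 genes. Their median span on the RefSeq assembly ARS1.2 was 8440 bp, against 46948 bp for the 67 genes. All protein-coding genes spanning under 10000 bp had 16.2% of values above 0. The part of span in this comparison was not tested.

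Across the 6 groups, the number of receptor genes above 0 followed the number of all genes above 0. Out of 67, the mean number per library was 10.2 ± 9.83 (SD, n = 5) in HLG, 7.4 ± 8.65 in LLG, 19.0 ± 9.38 in HMG, 29.6 ± 4.67 in LMG, 18.6 ± 10.2 in HSG and 19.2 ± 6.14 in LSG, each over 5 libraries. As shares, these were 15.2% in HLG, 11.0% in LLG, 28.4% in HMG, 44.2% in LMG, 27.8% in HSG and 28.7% in LSG. The share of all NCBI features above 0 was 17.8%, 10.3%, 26.7%, 38.8%, 21.6% and 28.0% in the same order. LMG was the highest and LLG the lowest group by both measures.

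Library by library, the 5 HLG libraries held 1, 5, 4, 17 and 24 receptor genes above 0 in the order of their numbers, and the 5 LLG libraries 6, 0, 22, 7 and 2. The HMG libraries held 17, 18, 6, 22 and 32 and the LMG libraries 31, 25, 31, 36 and 25. The HSG libraries held 1, 22, 26, 25 and 19 and the LSG libraries 18, 18, 21, 11 and 28. All pairs of groups overlapped except that every LMG library was above every LLG library and every HLG library. By the share of all NCBI features above 0, every LMG library (31.6% to 46.3%) was also above every LLG library (at most 29.2%). HLG-10, at 38.0%, lay within the LMG range by that share. Without the 7 libraries with few features, the mean numbers of receptor genes were 15 ± 8.63 (SD, 5 libraries) for large, 26.3 ± 6.6 (9 libraries) for medium and 20.9 ± 5.16 (9 libraries) for small follicles. With 10 libraries each, they were 8.8 ± 8.85, 24.3 ± 8.94 and 18.9 ± 7.95. No p was computed for these counts, since they sum over genes chosen with results of these data known.

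The ratio of the receptor share to the share of all NCBI features lay above 1 in 19 of the 30 libraries. Its mean was 0.756 ± 0.450 (SD, n = 5) in HLG, 0.948 ± 0.784 in LLG, 1.07 ± 0.114 in HMG, 1.14 ± 0.040 in LMG, 1.14 ± 0.399 in HSG and 1.03 ± 0.178 in LSG. The spread was small in the medium groups, with 0.922 to 1.20 over all 10 libraries, and wide in the large groups, with 0 in LLG-7 and 2.14 in LLG-5. All 4 HSG libraries other than HSG-5 were between 1.24 and 1.45.

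**Figure D2:**
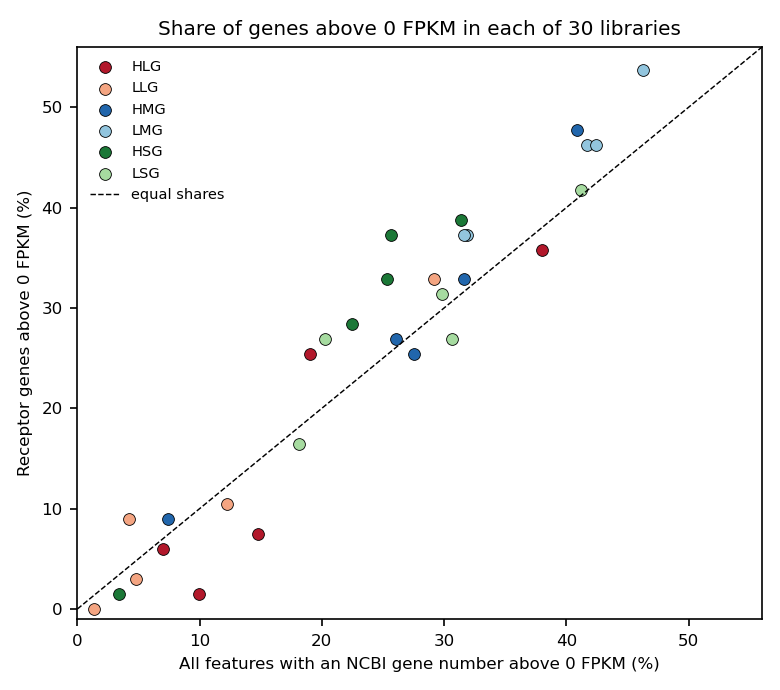
Each point is 1 library, with the percent of all NCBI features above 0 FPKM on the x axis and the percent of the 67 genes above 0 on the y axis, coloured by group, and a dashed line of equal shares. Points run along the line from LLG-7, where 0 of the 67 genes were above 0, to LMG-9 with 36 of 67.

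The summed FPKM of the 67 genes was a small part of each library, as was their number, 67 of 17946 NCBI features. It had a median of 0.122% of the summed FPKM of all NCBI features over the 30 libraries and ranged from 0 to 0.409%. By size the mean was 0.091% ± 0.125 (SD, n = 10) for large, 0.119% ± 0.024 for medium and 0.113% ± 0.056 for small follicles. Without LLG-5, the mean for large follicles was 0.056% ± 0.060 (SD, n = 9). HTR2B, at 29.11 FPKM, was the highest single value in LLG-5, the library with the highest share. The sizes overlapped, and with all libraries their means differed by less than the SD of the large follicle libraries. Without LLG-5, the means of large and medium follicles differed by slightly more than the SD of the remaining large follicle libraries. The share depended on the total used. With the 23 NCBI features above 0 in all 30 libraries left out of the total, the median share was 0.335% and the range 0 to 1.06%.

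Few receptor genes filled a whole group, and the same held for the genes of the table. LMG had 5 genes above 0 in all 5 of its libraries, among them GABRA2, GABRA4, GRIN2A and the scaffold gene GRID2IP, or 7.46% of the 67, while 9.48% of all NCBI features did so there. LSG had 1, GABRA2 (1.49%, against 2.94% of all NCBI features), and the other 4 groups had 0 (0.162% to 1.84% of all NCBI features). Genes at 0 in all 5 libraries of a group numbered 34 in HLG, 37 in LLG, 25 in HMG, 8 in LMG, 19 in HSG and 20 in LSG. As shares of the 67 these were 50.7%, 55.2%, 37.3%, 11.9%, 28.4% and 29.9%, against 45.5%, 60.7%, 33.7%, 22.1%, 41.4% and 31.8% of all NCBI features. Over the groups, 18 genes were above 0 at least once in all 6 and 12 genes in 1 group alone. Of these 12, 9 were above 0 in only 1 library and so could reach no second group. The matching shares of all NCBI features were not computed.

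**Figure D3:**
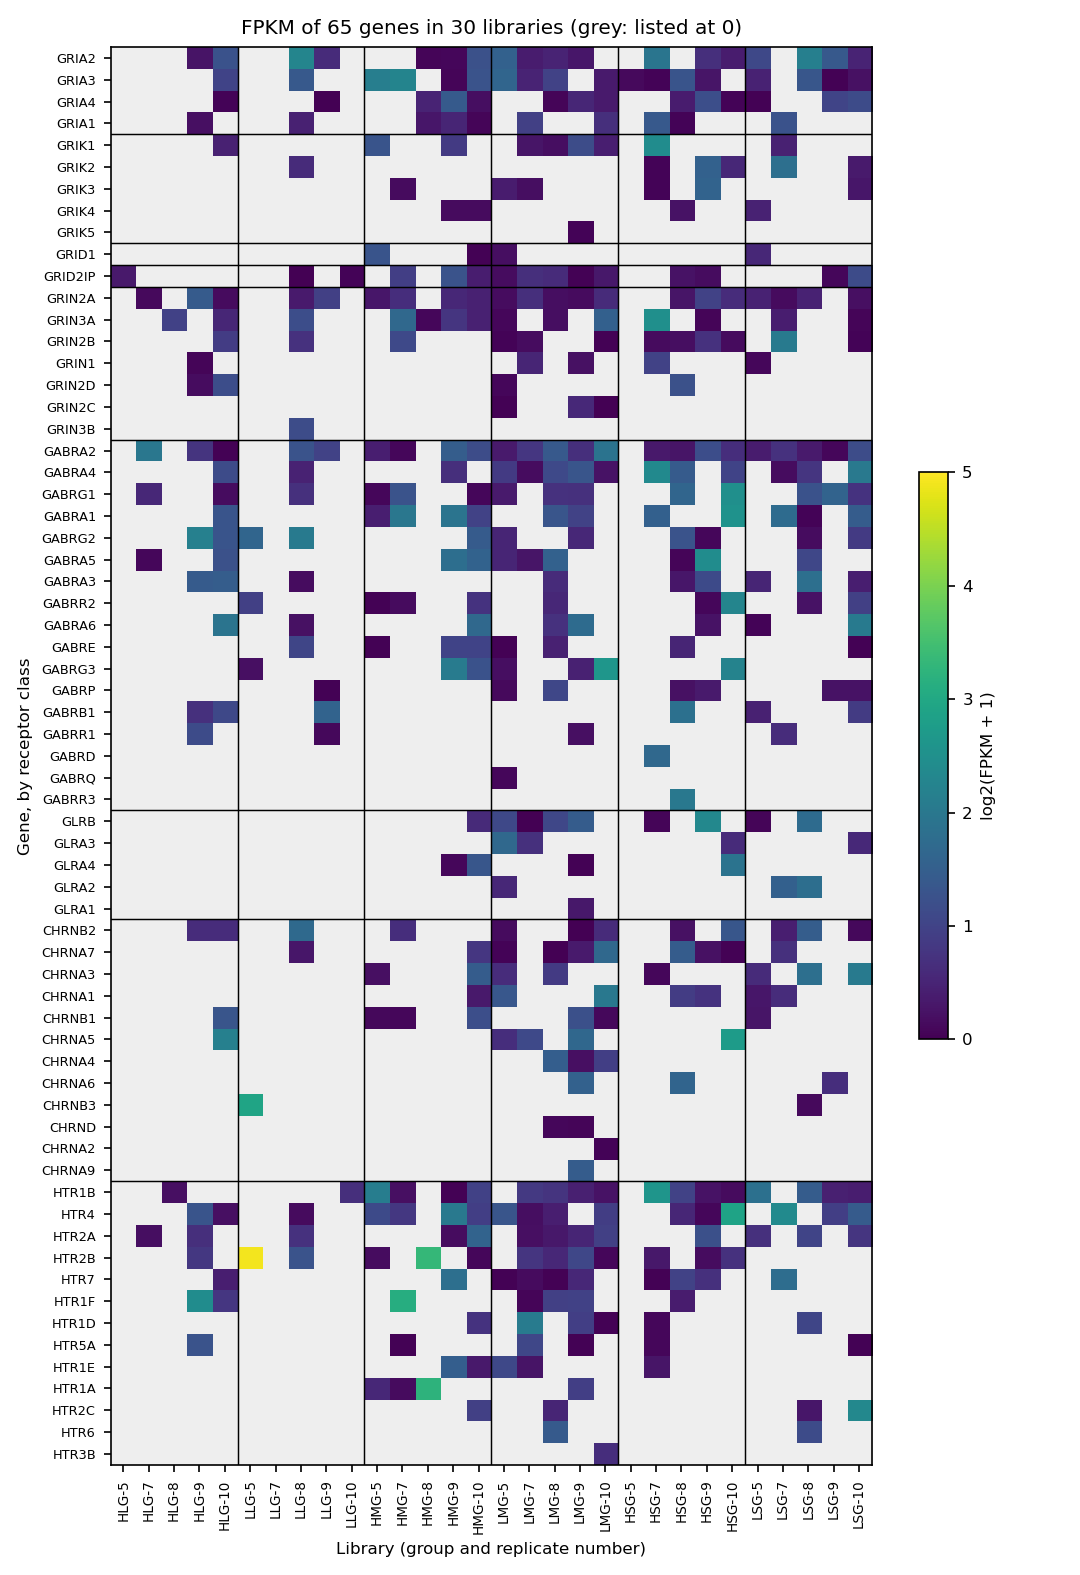
Rows are 65 of the 67 genes ordered by receptor class (GRID2IP, no receptor, has a row of its own), columns are the 30 libraries by group, and colour gives log2(FPKM + 1), with grey for values listed at 0. Most cells are grey, the LMG block is the fullest, and the columns of the 7 libraries with few features are nearly empty.

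Among the receptors for glutamate, the AMPA subunits, which carry fast excitation in the brain, were the most often above 0. GRIA2, whose edited form keeps calcium out of the channel, and GRIA3 were each above 0 in 18 libraries, GRIA4 in 14 and GRIA1 in 10. For GRIA2 the HLG libraries were at 0, 0, 0, 0.20 and 1.41 FPKM, the LLG libraries at 0, 0, 3.81, 0.54 and 0, and the HMG libraries at 0, 0, 0.05, 0.07 and 1.36. The LMG libraries were at 1.94, 0.31, 0.41, 0.24 and 0, the HSG libraries at 0, 2.86, 0, 0.59 and 0.30, and the LSG libraries at 1.13, 0, 3.46, 1.62 and 0.41. All 6 groups of GRIA2 overlapped, and its highest value, in LLG-8, was in a group with 3 libraries at 0. At least 1 AMPA gene was above 0 in 24 libraries, at least 2 in 20 and all 4 in 2 libraries, HMG-9 and HMG-10.

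NMDA receptors need the subunit GRIN1 together with GRIN2 subunits that bind glutamate. GRIN1 was above 0 in 5 of 30 libraries, at 0.05 FPKM in HLG-9, 0.43 in LMG-7, 0.17 in LMG-9, 0.99 in HSG-7 and 0.06 in LSG-5. A GRIN2 gene was above 0 in 22 libraries, 17 of which listed GRIN1 at 0. GRIN2A alone was above 0 in 21 libraries, at 0.09 to 1.72 FPKM, and GRIN2A was at 0.12, 0.60, 0.14, 0.11 and 0.54 FPKM in LMG, where every library held it. The obligatory subunit was above 0 in 5 libraries and this partner in 21.

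The other NMDA subunits were rarer or as scattered. GRIN3A, a glycine-binding subunit, was above 0 in 14 libraries with a highest value of 4.61 FPKM in HSG-7, GRIN2B in 12 and GRIN3B in 1 (LLG-8, 1.23 FPKM). Kainate receptors, which tune transmitter release, had GRIK1, GRIK2 or GRIK3 above 0 in 15 libraries and the high-affinity subunits GRIK4 or GRIK5 in 5, with both kinds in 2. GRIK1 held the highest kainate value, 4.38 FPKM in HSG-7, and GRIK5 the fewest libraries, with 0.03 FPKM in LMG-9 only. GRID1, a delta receptor, was above 0 in 4 libraries, at 1.46 FPKM in HMG-5, 0.02 in HMG-10, 0.14 in LMG-5 and 0.47 in LSG-5.

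GABA-A receptors are chloride channels that typically join alpha, beta and gamma subunits. Their alpha subunits had 42.2% of values above 0, the gamma subunits 35.6% and the rho subunits, best known from the retina, 15.6%. GABRA2, an alpha subunit, was above 0 in 23 libraries, the most of any of the 67 genes. Its values were 0, 2.94, 0, 0.69 and 0.02 FPKM in HLG, 0, 0, 1.44, 0.98 and 0 in LLG, 0.33, 0.06, 0, 1.78 and 1.24 in HMG, 0.29, 0.73, 1.62, 0.60 and 2.75 in LMG, 0, 0.26, 0.22, 1.28 and 0.58 in HSG, and 0.31, 0.64, 0.29, 0.07 and 1.23 in LSG. The 7 libraries where GABRA2 was listed at 0 were the 7 with the fewest features above 0. In those 7 libraries no alpha subunit was above 0, and 0 to 6 of all 67 genes were.

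Other GABA-A genes were above 0 in fewer libraries. GABRA4, an alpha subunit, and GABRG1, a gamma subunit, were each above 0 in 14, with highest values of 4.17 FPKM in HSG-7 and 4.61 FPKM in HSG-10. GABRD, GABRQ and GABRR3 were each above 0 in 1 library.

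Glycine receptors, which act in spinal cord and brain stem, join alpha subunits with the beta subunit GLRB. GLRB was above 0 in 9 libraries, up to 4.05 FPKM in HSG-9, and an alpha gene (GLRA) in 9, with both in 5. No glycine receptor gene was above 0 in any of the 10 large follicle libraries. Of all NCBI features, 45.5% were at 0 in all 5 HLG libraries and 60.7% in all 5 LLG libraries. Of the 5 glycine receptor genes, 4 were above 0 in at most 5 libraries of any group. GLRA1 was above 0 in LMG-9 only, at 0.25 FPKM.

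Nicotinic receptors are the acetylcholine channels of nerve and muscle. At least 1 of the 12 genes was above 0 in 21 libraries, mostly at scattered places: CHRNB2 in 12, CHRNA7 in 10, CHRNA3 in 8, CHRNA2 and CHRNA9 in 1. The pair CHRNA4 and CHRNB2, a common receptor of the brain, was above 0 together in 2 libraries. CHRNA1 and CHRNB1, subunits of the muscle receptor, were above 0 together in 3, and in none of these with CHRND. CHRNB3 reached the highest nicotinic value, 6.6 FPKM in LLG-5, with 0.09 FPKM in LSG-8 as its only other value above 0.

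The muscle subunit CHRNA1 was above 0 in 7 libraries: HMG-10 (0.26 FPKM), LMG-5 and LMG-10 (1.56 and 3), HSG-8 and HSG-9 (0.85 and 0.66) and LSG-5 and LSG-7 (0.23 and 0.56). Skeletal muscle markers had 26.7% of their values above 0 over 5 genes in the table. Their summed level was 0 to 4.26 FPKM in HLG, 0 to 2.84 in LLG, 0 to 10.65 in HMG, 0 to 3.19 in LMG, 0 to 11.21 in HSG and 0 to 5.82 in LSG, and their part in the values of CHRNA1 was not tested.

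A serotonin receptor was above 0 in 26 libraries. HTR1B, which lowers cyclic AMP, was above 0 in 18 libraries and HTR4, which raises it, in 17, with highest values of 5.06 FPKM in HSG-7 and 6.48 FPKM in HSG-10. HTR2B, which signals through phospholipase C, held the highest value of all 67 genes, 29.11 FPKM in LLG-5, and next reached 8.99 FPKM in HMG-8. Both of these are libraries with few features above 0, with 875 and 1521. HTR1A (8.41 FPKM in HMG-8) and HTR1F (7.69 FPKM in HMG-7) also reached 5 FPKM in 1 library each. HTR3B, whose channel needs HTR3A, was above 0 in LMG-10 only, at 0.57 FPKM.

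Genes with a longer span on the RefSeq assembly ARS1.2 tended to be above 0 in more libraries, among the receptor genes as among all protein-coding genes. Spearman's rho between span and number of libraries above 0 was 0.34 over the 67 genes and 0.38 over 17945 protein-coding genes. These describe genes that share the same 30 libraries, and no p is given. Receptor genes spanning under 10000 bp had 19.2% of values above 0, against 16.2% of all protein-coding genes of that span. The share was 20.2% against 22.5% for spans of 10000 to 30000 bp, 22.9% against 29.8% for 30000 to 100000 bp, 38.2% against 34.7% for 100000 to 300000 bp and 32% against 36.9% above that. The receptor genes were above all protein-coding genes in 2 of these 5 classes, and their longest class, of 10 genes, was below the class before it.

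Some neighbours on a chromosome were above 0 in the same libraries. In the gene order of ARS1.2, GABRG1 lies beside GABRA2, and GABRA4 follows with 1 gene between. GABRG1 and GABRA4 were each above 0 in 14 libraries, and all of these were among the 23 with GABRA2 above 0. Those 23 were the libraries with at least 2446 features above 0. Any gene listed at 0 in the other 7 libraries therefore overlaps GABRA2 in this way. GLRB lies beside GRIA2, and its 9 libraries were among the 18 of GRIA2. Other neighbours shared few, with 1 library for CHRNA5 and CHRNA3, which were above 0 in 5 and 8, and 0 for CHRNA6 and CHRNB3. These overlaps are descriptions, with no test.

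The study set granulosa cells of high fertility goats against those of low fertility goats at each follicle size. Of the 67 genes, 26 passed a filter of FPKM above 0.5 in at least 5 libraries and were tested with limma on log2(FPKM + 1), in 1 fit over 6058 features with Benjamini-Hochberg adjustment over all of them. In none of the 3 sizes, nor over them together, did a receptor gene pass the threshold of 0.05 on the adjusted p. The share of all features called was 0% in each of these 4 comparisons. At an unadjusted p under 0.05 there were 0 of 26 receptor genes in large follicles (4.8% of all features), 1 in medium (5.15%), 1 in small (6.39%) and 0 over sizes (3.95%). The median difference of the 26 genes, high minus low, was 0.05 in large, 0.02 in medium and 0.02 in small follicles on the log2 scale, beside 0.10, -0.07 and -0.09 for all features tested.

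In large follicles the lowest p belonged to HTR2B. It was at 0, 0, 0, 0.76 and 0 FPKM in HLG and at 29.11, 0, 1.42, 0 and 0 in LLG, so that the groups overlapped at 0. The difference of HLG from LLG was -1.07 ± 0.61 (SE) on the log2(FPKM + 1) scale, with an adjusted p of 0.976 (limma). A single library carried it, since without LLG-5 the difference was -0.16.

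In medium follicles CHRNA1 had the lowest p, with HMG at 0, 0, 0, 0 and 0.26 FPKM and LMG at 1.56, 0, 0, 0 and 3. The difference was -0.60 ± 0.28 (SE), with an unadjusted p of 0.0340 and an adjusted p of 0.885 (limma). In small follicles it was CHRNA3, a subunit of the receptor of autonomic ganglia, with HSG at 0, 0.07, 0, 0 and 0 FPKM and LSG at 0.54, 0, 2.53, 0 and 3.19. This difference was -0.88 ± 0.32 (SE), with an unadjusted p of 0.00864 and an adjusted p of 0.570 (limma). Both pairs of groups overlapped at 0, and the higher group rested on 2 libraries for CHRNA1 and on 3 for CHRNA3. Over sizes, CHRNA3 again had the lowest p, with a difference of -0.28 ± 0.19 (SE) and an adjusted p of 0.952 (limma), and the difference was -0.18 without LSG-10.

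**Figure D4:**
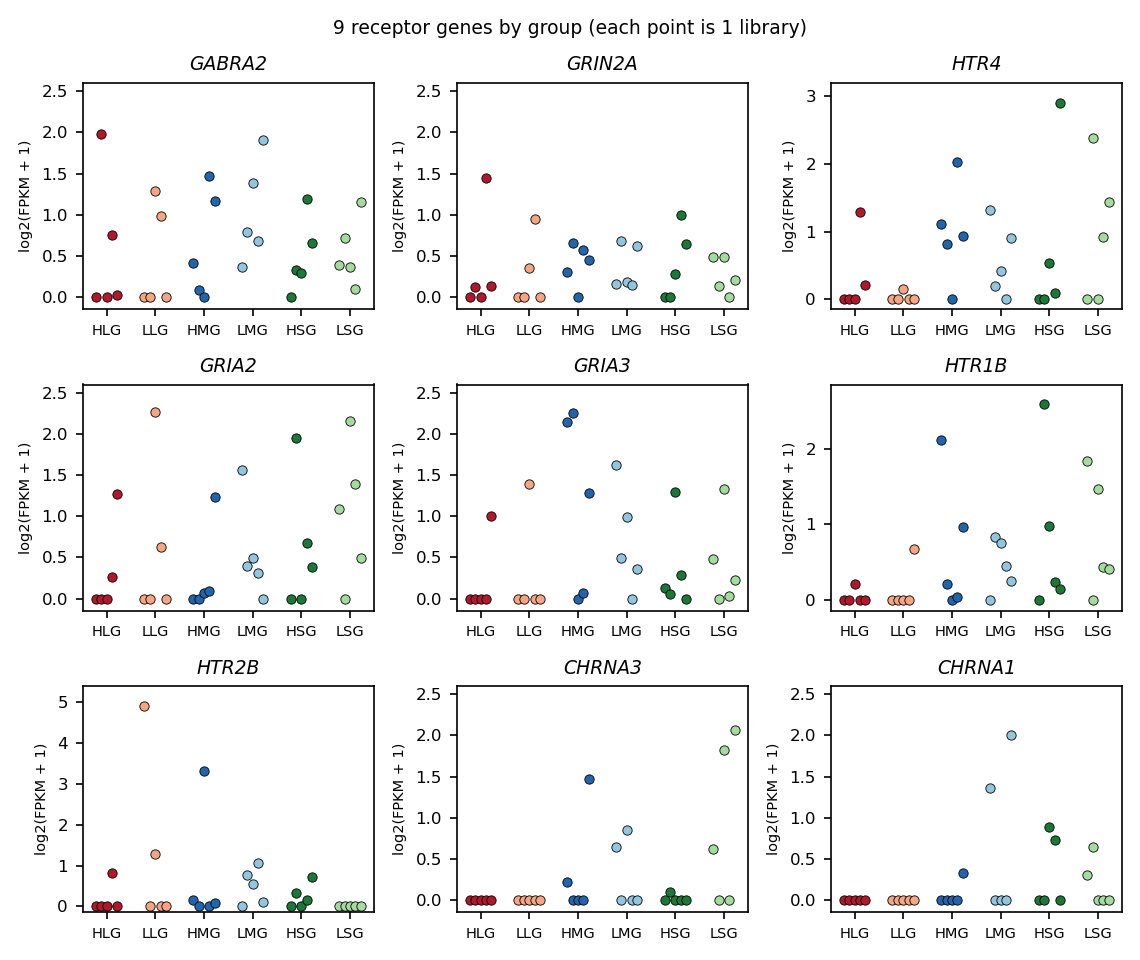
Points give log2(FPKM + 1) of 9 receptor genes, 1 point per library, in the 6 groups of 5 libraries, with a y axis of its own range for each gene. Each gene has libraries at or near 0 beside libraries far above 0 within several groups, and CHRNA1 and CHRNA3 sit at 0 in all 10 large follicle libraries.

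The second axis of the study was follicle size. Between large and medium follicles over both fertility classes, 0 of 26 receptor genes were called (0% of all features), and 2 had an unadjusted p under 0.05, GRID2IP and GRIA3, or 7.69% beside 11.5% of all features. Between large and small follicles 0 were called (0% of all features) and 3 had an unadjusted p under 0.05, HTR1B, GABRG1 and CHRNA3, or 11.5% beside 8.42%. Between medium and small follicles 0 were called (0.0165% of all features, 1 of 6058) and 0 had an unadjusted p under 0.05 (5.13% of all features). The median difference of the 26 genes was -0.21 for large minus medium and -0.13 for large minus small, beside -0.25 and -0.19 for all features tested.

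GRID2IP, the delphilin gene, was at 0.26, 0, 0, 0 and 0 FPKM in HLG, at 0, 0, 0.01, 0 and 0.03 in LLG, at 0, 0.91, 0, 1.42 and 0.32 in HMG and at 0.12, 0.59, 0.53, 0.02 and 0.25 in LMG. Large and medium follicles overlapped between 0 and 0.26 FPKM. The difference, large minus medium, was -0.40 ± 0.17 (SE), with an unadjusted p of 0.0237 and an adjusted p of 0.392 (limma). GRIA3 was above 0 in HLG-10 and LLG-8 alone among large follicles, at 1 and 1.63 FPKM, and in 8 of 10 medium libraries, up to 3.78 FPKM in HMG-7. Its difference was -0.68 ± 0.33 (SE) with an adjusted p of 0.429 (limma).

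HTR1B was above 0 in HLG-8 (0.16 FPKM) and LLG-10 (0.60 FPKM) alone among large follicles. In small follicles it was at 0, 5.06, 0.97, 0.18 and 0.10 FPKM in HSG and at 2.59, 0, 1.76, 0.35 and 0.32 in LSG. The difference, large minus small, was -0.72 ± 0.33 (SE), with an unadjusted p of 0.0322 and an adjusted p of 0.571 (limma), and the sizes overlapped. GABRG1 differed by -0.63 ± 0.30 (SE) with an adjusted p of 0.578, and CHRNA3, listed at 0 in all 10 large follicle libraries, had an adjusted p of 0.581 (limma), with no fold given. GRIA3 had the lowest p between medium and small follicles, with a difference of 0.54 ± 0.33 (SE) and an adjusted p of 0.961 (limma).

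**Figure D5:**
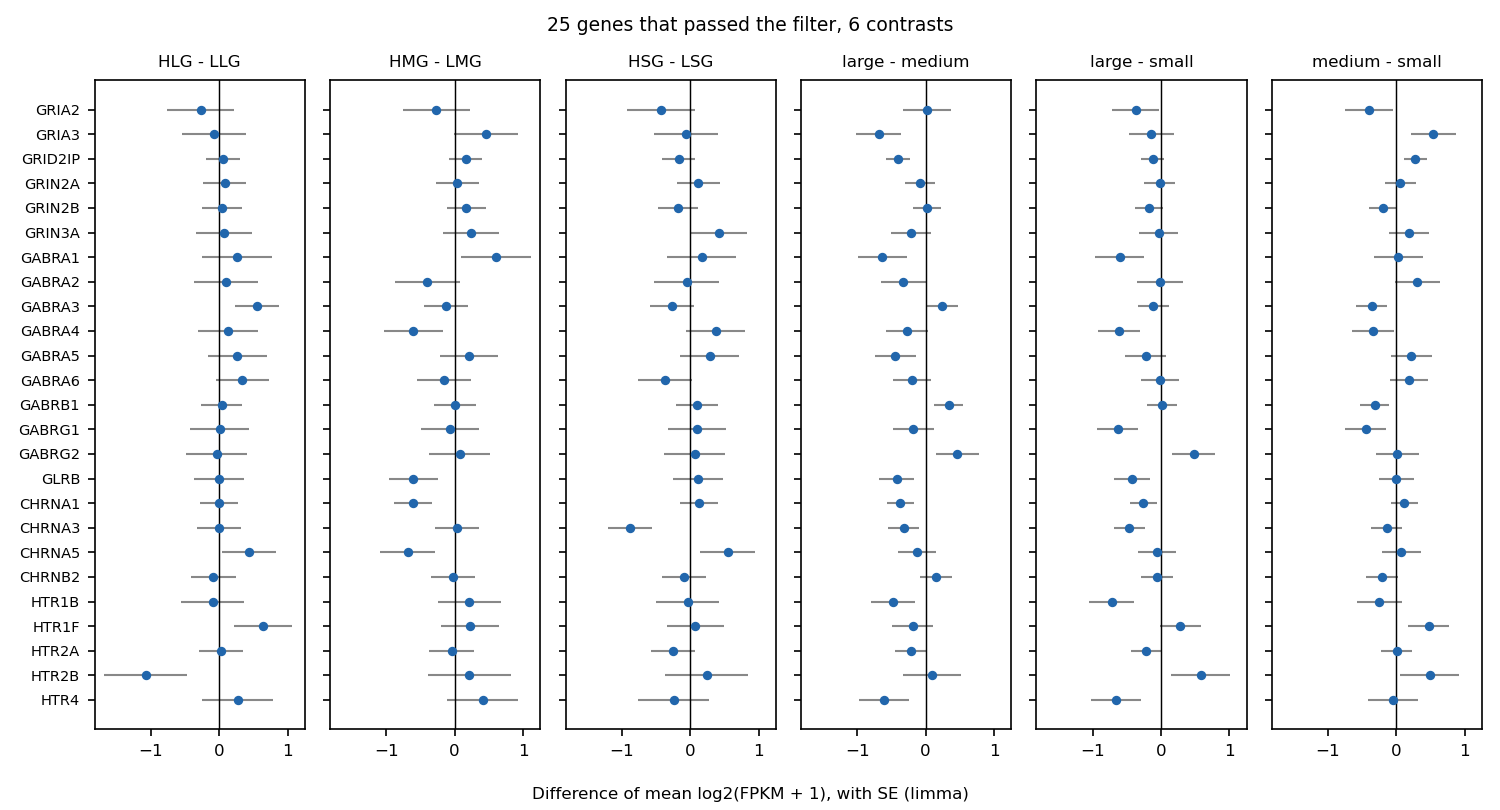
Points give the difference of mean log2(FPKM + 1) and bars the standard error (limma) for 25 of the 26 genes that passed the filter, in 6 comparisons with 5 libraries per group or 10 per size. Points scatter on both sides of 0 for fertility, and 18 of the 25 are below 0 for large minus medium and 21 for large minus small. Of all 6058 features tested, 4743 were below 0 for large minus medium and 4384 for large minus small. Genes listed at 0 in both groups, such as CHRNA3 in HLG and LLG, are drawn at 0.

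Whether the fertility difference changed with size was tested as an interaction. No receptor gene was called (0% of all features), and 0 of 26 had an unadjusted p under 0.05 (4.67% of all features). The lowest p was that of CHRNA5, an accessory subunit of neuronal nicotinic receptors, with an adjusted p of 0.895 (limma). CHRNA5 was above 0 in HLG-10 (3.52 FPKM), in LMG-5, LMG-7 and LMG-9 (0.58, 1.16 and 2.18 FPKM) and in HSG-10 (5.66 FPKM), and was listed at 0 in all LLG, HMG and LSG libraries. It thus had 3 groups with values above 0, of which 2 rested on 1 library.

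Presence alone was also compared by counting the libraries above 0 for each gene, with a two-sided Fisher's exact test adjusted over all 20125 features. GRIA3 and HTR1B were each above 0 in 2 of 10 large, 8 of 10 medium and 8 of 10 small follicle libraries. Large against medium gave an exact p of 0.0230 for each and an adjusted p of 0.468, and the same exact p with an adjusted p of 1 came from large against small. Of the 67 genes, 3 had an unadjusted p under 0.05 between large and medium follicles (6.17% of all features) and 2 between large and small (1.66%). Between medium and small follicles this held for GRIK2 alone (0.979% of all features), and between the fertility classes for 0 of the 67 genes (0.85%). GLRB was above 0 in 0 of 10 large and 5 of 10 medium libraries (exact p of 0.0325, adjusted p of 0.527). The adjusted threshold was passed by 0 genes in the 3 size comparisons and between the fertility classes. Large follicles also held 5 of the 7 libraries with few features, and the part of this in the values of GRIA3, HTR1B and GLRB was not tested.

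The other genes around these receptors were read from the same fit. The list of partners and scaffolds, such as the AMPA auxiliary subunits CACNG and the NMDA scaffolds DLG, had 33 of 35 genes in the table and 29.4% of values above 0. HOMER1, a postsynaptic scaffold, was above 0 in 22 libraries and DLG4, the defining scaffold of excitatory synapses, in 3. The list of transmitter synthesis and transport had 25 of 29 genes and 26.9% of values above 0. SLC17A6, which loads glutamate into vesicles, was above 0 in 16 libraries, while SLC32A1, which loads GABA into vesicles, was above 0 in 2. The list of other transmitter receptors, such as the muscarinic and dopamine receptors, had 37 of 40 genes and 21.4%. Of the 10, 8 and 9 genes of these lists that passed the filter, 0 were called in any of the 8 comparisons.

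Markers of neurons themselves were also above 0, at 33.6% of values over 14 of 15 genes in the table. MAP2, a microtubule protein of dendrites, was above 0 in 21 libraries, ELAVL4 in 19 and NEFL in 15, whereas RBFOX3 (NeuN) was above 0 in 4, SYN1 in 4 and SYP in 3. By group the share above 0 was 24.3% in HLG, 14.3% in LLG, 38.6% in HMG, 47.1% in LMG, 35.7% in HSG and 41.4% in LSG, so LMG was highest and LLG lowest, as for the receptor genes. Their summed level was 1.29 to 7.77 FPKM in HLG, 0 to 15.20 in LLG, 0.24 to 3.85 in HMG, 3.17 to 8.96 in LMG, 0 to 17.43 in HSG and 0.07 to 6.18 in LSG. Glia markers had 21.0% of values above 0 over 10 genes, with AQP4 above 0 in 19 libraries and GFAP, the defining marker of astrocytes, in 2. The part of neurons, glia or other cells in the receptor values was not tested.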

How the data were processed

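Total RNA of granulosa cells was depleted of ribosomal RNA and sequenced. The study's methods state that uniquely placed reads were retained, that picard took out duplicates and that Cufflinks 2.2.1 gave FPKM. These FPKM values were deposited by the authors for 20125 features in 30 libraries. Because duplicates were removed and values carry 2 decimals, low genes take few distinct values. The aligner and genome build are not given in the sources used here. Depth was not analysed here, and FPKM alone gives no interval for counting error.

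Symbols, spans and gene order came from the RefSeq gene table of ARS1.2, where 17945 of 17946 NCBI numbers matched; positions served for spans and order only. The genes and all gene lists were chosen with earlier results of these data known. No sequences are printed. All 67 genes enter the counts, shares and fits, but 2 of them, with 1 gene of the other lists, are not reported singly here.

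limma 3.58.1 (R 4.3.3) was fitted to log2(FPKM + 1) of features above 0.5 FPKM in at least 5 libraries, with group means of all 6 groups and a trended, robust prior, giving 8 two-sided contrasts with a threshold of 0.05 on the adjusted p. Fold changes on this scale understate changes of low genes. Detection was described as values above 0, and compared per gene with Fisher's exact test (R 4.3.3). The script was tested on simulated data. Alternatives were a pseudocount of 0.1, no filter, sample quality weights, a replicate block, scaling by the 75th percentile, only the compared groups, a detection limit of 1 FPKM, and leaving out each library, the 4 libraries that a mapping list of the study does not name or, added after seeing the data, GRID2IP, the 7 libraries with few features or, for 1 summed share, LLG-5.

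Genes were named by rule: the 12 above 0 in the most libraries, the lowest p in each contrast, and in each class the highest value and the fewest libraries, apart from the genes not reported singly. Others named, with the pairs of subunits and neighbours, were chosen after their values were seen.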

Additional observations from a re-analysis of the deposited data

Results flagged for a closer look

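In small follicles of high fertility goats, the library HSG-5 stood apart from the other 4. It had 1 receptor gene above 0 (GRIA3 at 0.09 FPKM), against 19 to 26 in the others, and 0 genes at 1 FPKM or more, against 8 to 9. Its ratio of the receptor share to the share of all NCBI features was 0.440, against 1.24 to 1.45. These 3 values had a gap to the nearest library that was more than 0.71 of the group's range. Over the 24 sets of 5 libraries searched, 3 stood out, and chance alone gives about 1 in 20 for independent sets. The sets were related quantities of the same libraries, and all 3 were of HSG-5, so their number cannot be set against that rate. HSG-5 had 719 features above 0, and the part of this in its values was not tested. Single genes listed at 0 in 4 of 5 libraries meet the same limit by construction and were not searched.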

How the results depend on the processing

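No receptor gene was called in any of the 8 comparisons under the alternatives. These made 295 combinations of a comparison with a setting, counting each library left out in turn and Fisher's exact test. The number of separate fits was smaller. The lowest adjusted p among the combinations was 0.1165, for large against medium follicles with sample quality weights (limma). Leaving out each library gave 0 to 0 calls. At 1 FPKM or more, the share of receptor genes fell to 8.76%, the difference HMG minus LMG in their mean number became 0.20 (-10.6 for above 0) and that of large minus medium -3.50 (-15.5 for above 0); the cause was not tested. Leaving out each library moved the difference in number above 0 between -0.65 (without HLG-10) and 6.45 (without LLG-8) for HLG minus LLG, -13.85 and -7.35 for HMG minus LMG, -2.65 (without LSG-9) and 3.80 (without HSG-5) for HSG minus LSG, -17.53 and -14.2 for large minus medium, -12.09 and -9.09 for large minus small, and 3.41 and 7.43 for medium minus small. The directions of HLG minus LLG (2.80 in all libraries) and HSG minus LSG (-0.60) therefore depended on single libraries. Without the 7 libraries with few features, the 6 differences were 0.833, -7.35, 3.80, -11.3, -5.89 and 5.44 in that order.

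The labels number the libraries alike in each group. Over 75 pairs of libraries of the same number the mean correlation of deviations from the group means was 0.0071 (-0.0335 to 0.124), against -0.0017 over 300 pairs of different numbers, so the numbers were not taken as pairs. With the replicate block, 0 receptor genes were called in each comparison.

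Depth was not analysed here, and a value at 0 shows neither absence nor a measured low level.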
